A study of Mus musculus with 6 samples.

Results

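The genes described here form the core of MHC class I antigen presentation in mouse brain endothelial cells in culture. They are 10 genes chosen by symbol: the classical class I heavy chains H2-K1 and H2-D1, their partner B2m, the peptide transporter and loading genes Tap1, Tap2 and Tapbp, the regulator Nlrc5, and the immunoproteasome subunits Psmb8, Psmb9 and Psmb10. The count table lists 52636 genes, of which 13901 had enough counts to be tested, and all 10 genes were among these. They are chosen by name, with earlier results of these data known.

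RNA was sequenced from 6 libraries of endothelial cells that had been isolated from mouse brain, cultured in endothelial medium and sorted as live, CD45-, CD31+ and VE-cadherin+ cells. Of these, 3 carry the genotype label wild type control and 3 the label Erg and Fli1 double knockout (called control and knockout libraries 1, 2 and 3). The treatment with 4-OHT, the tamoxifen metabolite that switches on inducible Cre, is recorded for both groups, so the controls received it too. Erg and Fli1 belong to the ETS transcription factors, and the series concerns how these keep endothelial cells in their adult state. The labels used here do not give the Cre driver, the strain, the sex or age of the animals, the exons removed, or whether the libraries of a group came from separate animals or cultures, so the tests measure only how these libraries vary.

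MHC class I molecules show fragments of a cell's own proteins to CD8 T cells. Proteasomes cut the proteins, the Tap1 and Tap2 transporter carries peptides into the endoplasmic reticulum, tapasin (Tapbp) bridges the transporter to empty class I molecules, and a heavy chain bound to beta-2-microglobulin (B2m) then takes the peptide to the cell surface. Interferons raise the whole set in most cell types, in part through Nlrc5, and exchange the catalytic subunits of the proteasome for those encoded by Psmb8, Psmb9 and Psmb10; endothelial cells of the brain are known to present antigen on class I at the blood-brain barrier.

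The promoters of the classical heavy chains and of B2m are shown first, because these 3 genes held the highest levels of the set and because 2 of the promoters share an interferon and an NF-kappaB motif. RefSeq promoter windows of 300 bases (250 before and 50 after the start site, build GRCm38.p6) were found for 8 of the 10 genes, Tap2 and Nlrc5 being the other two. The last 220 bases before each start site are printed 5′ to 3′ on the strand of the gene, with matches to the interferon element GAANNGAAA and to the 10-base NF-kappaB motif (GGG, any 2 bases, TT, any base, CC), searched on both strands, in capitals. The stretches are chr17:34000348-34000567 on the minus strand for H2-K1 (the first of 2 start sites listed), chr17:35262874-35263093 on the plus strand for H2-D1 and chr2:122147467-122147686 on the plus strand for B2m.
H2-K1: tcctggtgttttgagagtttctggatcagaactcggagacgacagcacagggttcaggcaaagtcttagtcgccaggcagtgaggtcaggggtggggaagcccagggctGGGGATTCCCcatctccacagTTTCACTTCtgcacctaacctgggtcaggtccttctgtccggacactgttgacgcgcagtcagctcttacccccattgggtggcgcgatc
H2-D1: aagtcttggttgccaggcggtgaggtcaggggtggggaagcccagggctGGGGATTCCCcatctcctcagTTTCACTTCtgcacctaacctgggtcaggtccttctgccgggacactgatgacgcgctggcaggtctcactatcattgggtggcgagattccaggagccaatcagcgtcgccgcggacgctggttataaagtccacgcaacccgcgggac
B2m: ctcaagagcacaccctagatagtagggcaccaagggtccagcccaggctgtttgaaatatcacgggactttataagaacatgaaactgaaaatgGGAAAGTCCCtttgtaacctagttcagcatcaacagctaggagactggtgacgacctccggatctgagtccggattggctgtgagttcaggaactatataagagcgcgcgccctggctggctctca

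In both heavy chain promoters the NF-kappaB match stands shortly before the interferon element, at -111 and -90 from the start site in H2-K1 and at -171 and -150 in H2-D1, counted at the first base of each match. The positions depend on the start site used, which for H2-K1 was the first of 2 listed, so their offset between the genes is not a measured difference. The H2-K1 and H2-D1 windows share an unbroken run of 47 bases that holds the NF-kappaB match. B2m has an NF-kappaB match at -126 and no match to the interferon element as spelled. Shortly before its NF-kappaB match, however, the printed B2m stretch reads gaaactgaaa, a similar element with wider spacing that the search did not cover. The NF-kappaB motif was thus present in 3 of the 8 windows, against 4.79% of 32851 promoter windows of the same length. The interferon element as spelled was present in 2 of the 8, against 7.52%. Other spellings were searched too. The gamma-activated site TTCNNNGAA matched only in the Psmb8 window (8.30% of all windows). CCAAT matched in every window except those of Psmb8 and Psmb10 (37.4% of all). TGACG matched in those of H2-K1, H2-D1, B2m, Tap1 and Psmb9 (20.8% of all). The Tap1 and Psmb9 genes are transcribed in opposite directions from one short stretch, and their 2 windows share 275 bases. The longer ETS spellings CGGAAG and AGGAAG were in 0 of the 8 windows, and 1 or both were in 46.5% of all windows. The shorter GGAA at their centre does occur in each printed stretch and was not counted, so the 0 of 8 does not show a lack of ETS sequences. These are matches of letters, not measured binding sites.

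The libraries held 17274639 to 19410458 counts, and levels are given as CPM (counts of a gene scaled to a common library size, here by TMM). Erg fell from 656, 223 and 610 CPM in controls 1, 2 and 3 to 70.2, 88.3 and 109 CPM in the knockouts (a fitted change of -2.48 on the log2 scale, SE 0.44; adjusted p = 0.0137 in edgeR; -2.86 without control 2), and this call was lost without control 3 or any 1 knockout library (adjusted p 0.0508 to 0.0691). Fli1 stood at 82.9, 64.2 and 92.1 against 57.0, 68.5 and 66.7 CPM, groups that overlap (edgeR adjusted p = 0.181, or 0.00346 without control 2). Gene-level counts do not show which exons were read, so they do not test the deletion of Fli1. Control 2 stood apart from the other controls: its 16 endothelial markers summed to 8012 CPM against 18190 and 17990, its 12 fibroblast markers to 13240 against 422 and 1159, and its 12 mural cell markers to 4311 against 478 and 593. The knockouts had 784 to 1578 CPM of the mural markers and 1646 to 2868 CPM of the fibroblast markers. Most of the latter was Dcn (1421, 2110 and 1343 CPM, against 3.95, 317 and 6.96 in the controls), and the other 11 fibroblast markers summed to 568, 758 and 303 CPM in the knockouts, against 419 and 1152 CPM in controls 1 and 3. The endothelial markers summed to 4531 to 5439 CPM in the knockouts, below every control, and 13 of 16 fell, beside 1621 of the 13901 tested genes. Cdh5 and Pecam1, the genes of VE-cadherin and CD31, were still read in every library, at 1104 CPM or more and 219 CPM or more. By Xist (431 to 611 CPM) control 2 and knockouts 2 and 3 read as female, and by Ddx3y the other libraries read as male, so each group held cells of at least 2 animals. In bulk RNA, more cells of a type and more RNA per cell cannot be told apart. The main results below are therefore given with all 6 libraries and without control 2, and the part that the cell makeup of the libraries plays in it was not tested.

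The class I genes were higher in the knockout libraries throughout. Each of the 10 genes was higher in every knockout library than in every control library, as were 25.0% of the 13901 tested genes. With all 6 libraries 6 of the 10 rose (H2-K1, B2m, Tap1, Nlrc5, Psmb8 and Psmb10), none fell, and H2-D1, Tap2, Tapbp and Psmb9 did not pass the test (edgeR adjusted p 0.0663 to 0.0941). Of all tested genes 13.1% were called higher and 24.7% were called in either direction (3437 genes, 52.8% of them higher, or 66.4% when libraries were scaled by total count alone). Without control 2 all 10 genes rose (edgeR adjusted p 5.24e-05 to 0.0209), beside 25.5% of the 14178 genes then tested (50.3% were then called in either direction). The median log2 fold change of the 10 genes was 1.28 (range 0.61 to 1.61), and 0.91 (0.37 to 1.40) without control 2, where the medians over all tested genes were 0.003 and -0.0037.

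The order of the libraries was much the same from gene to gene. Control 2 was the lowest control for 10 of 10 genes, at 30.4% to 80.4% of the mean of controls 1 and 3, so that including it widened both the difference and its error. Knockout 1 was the lowest knockout for 9 genes and knockout 3 the highest for 10. Within the male libraries, knockout 1 was above controls 1 and 3 for all 10 genes, by 1.18 to 2.43 times their mean. Within the female ones, knockouts 2 and 3 averaged 2.31 to 6.67 times control 2, the control that stands apart.

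**Figure D1:**
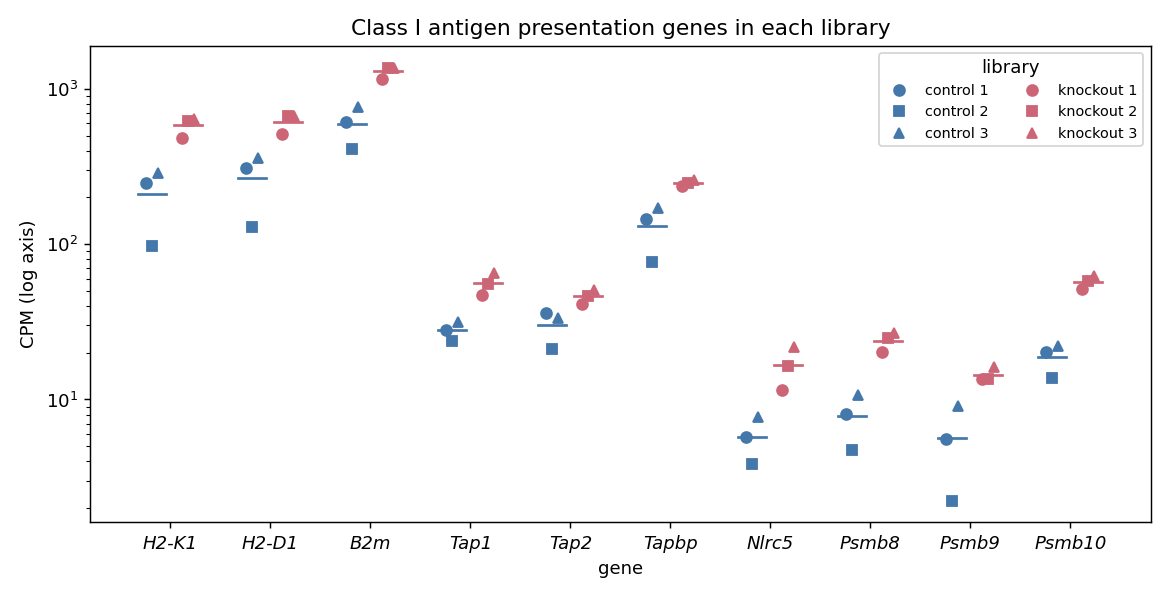
CPM of the 10 class I genes in each library (log axis), with circles, squares and triangles for libraries 1, 2 and 3, blue for control, red for knockout, and a line at each group mean. For all 10 genes the 3 red points lie above the 3 blue points, and the blue square (control 2) is the lowest of its group.

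H2-K1 and H2-D1 encode the polymorphic heavy chains that hold the peptide, and both lie in the MHC on chromosome 17 of GRCm38 (chr17:33996017-34000347, minus strand, and chr17:35262730-35267499, plus strand). H2-K1 stood at 246, 97.2 and 286 CPM in controls 1, 2 and 3 and at 479, 622 and 643 CPM in knockouts 1, 2 and 3, so the lowest knockout exceeded the highest control by a wide gap. The means were 210 ± 99.6 and 581 ± 88.9 CPM (SD, n = 3), which differ by 1.47 on the log2 scale (SE 0.41; adjusted p = 0.0482 in edgeR), and the difference narrowed to 1.09 (SE 0.14, adjusted p = 6.71e-04) without control 2. The H2-K1 call with 6 libraries was lost when control 1, control 3 or any knockout library was left out (adjusted p 0.0774 to 0.140), with RLE or upper-quartile scaling (0.0518 and 0.0536) and with a term for sex (0.0635).

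H2-D1 was at 309, 129 and 361 CPM in the controls and at 509, 666 and 669 CPM in the knockouts. The groups did not overlap, but the fitted difference of 1.21 (SE 0.39) did not pass the test (edgeR adjusted p = 0.0725), whereas without control 2 it was 0.84 (SE 0.13, adjusted p = 0.00201). The 2 heavy chains together gave 556, 226 and 647 CPM against 989, 1287 and 1312 CPM. The ratio of H2-K1 to H2-D1 counts was also higher in the knockouts, at 0.942, 0.933 and 0.962 against 0.796, 0.754 and 0.792 in the controls. Unlike the levels, this ratio in control 2 was close to that of the other controls. The genes share 9.63% (H2-K1) and 12.8% (H2-D1) of their 50-base exon sequences with other genes, mostly other class I heavy chains, so reads could have been split among them by the counting.

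B2m encodes the invariant light chain, which every class I and most class I-like molecules need to leave the endoplasmic reticulum (chr2:122147686-122153083, plus strand). It was the most abundant of the set on the per-length scale, at 694 ± 205 CPM per kb of exon in the controls and 1507 ± 142 in the knockouts (SD, n = 3), against 71.4 and 198 for H2-K1 and 103 and 238 for H2-D1. By library, B2m was at 615, 412 and 762 CPM in the controls and at 1154, 1363 and 1370 CPM in the knockouts. The groups were again apart, and B2m rose by 1.12 on the log2 scale (SE 0.24, edgeR adjusted p = 0.0226) and by 0.88 (SE 0.12, adjusted p = 8.16e-04) without control 2. The call was lost when control 1 or any 1 knockout library was left out (adjusted p 0.0635 to 0.0870).

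With all 6 libraries the 3 peptide loading genes had the smallest differences. Tap1 and Tap2 encode the paired chains of the peptide transporter, and their genes lie beside Psmb9 and Psmb8 in the class II region of the MHC (Tap1 at chr17:34187553-34197225 and Tap2 at chr17:34203527-34216321, both plus strand). Tap1 stood at 28.1, 23.96 and 31.5 CPM in the controls and at 47.0, 55.0 and 65.4 CPM in the knockouts. It rose by 1.00 (SE 0.16, edgeR adjusted p = 0.00978) and by 0.87 (SE 0.14, adjusted p = 0.00227) without control 2, and the call held in all 6 fits that left out 1 library. For Tap1 control 2 lay close to the other controls, and its removal changed the difference little.

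Tap2 was at 36.1, 21.1 and 33.4 CPM in the controls and at 40.9, 46.6 and 50.5 CPM in the knockouts. The gap between control 1 and knockout 1 was small, and the difference of 0.61 (SE 0.22) did not pass (edgeR adjusted p = 0.0941); without control 2 it was 0.37 (SE 0.10, adjusted p = 0.0209), the smallest of the 10. Tapbp, the gene of tapasin (chr17:33915899-33929292, plus strand), was at 145, 76.4 and 170 CPM in the controls and at 236, 249 and 259 CPM in the knockouts, which lay close together. Its difference of 0.93 (SE 0.29) did not pass (edgeR adjusted p = 0.0663), and without control 2 it was 0.62 (SE 0.08, adjusted p = 7.33e-04). Exons of Tap2 (18.5%) and Tapbp (24.9%) overlap unnamed gene models on the opposite strand, which held at most 0.335 CPM in any library. Exons of Psmb8 (14.7%) overlap such a model too, and those of Psmb9 (5.79%) and Tap1 (3.87%) overlap each other. Whether reads were counted by strand is not given, so the low counts do not show that no reads were lost there.

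Nlrc5, the class I transactivator, is a NOD-like receptor family protein that works at class I promoters; its gene lies outside the MHC (chr8:94434356-94527272, plus strand). It was the least abundant of the 10 per length, at 0.678 ± 0.224 CPM per kb in the controls and 1.95 ± 0.61 in the knockouts (SD, n = 3). By library it stood at 5.74, 3.87 and 7.67 CPM against 11.5, 16.4 and 21.8 CPM. Knockout 1 was only moderately above control 3, and the knockouts were spread more widely than for the other genes. Nlrc5 rose by 1.52 (SE 0.34, edgeR adjusted p = 0.0259) and by 1.27 (SE 0.28, adjusted p = 0.00906) without control 2, and was not called when control 1, knockout 2 or knockout 3 was left out (adjusted p 0.0846 to 0.0898) and with a term for sex (0.0694).

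The immunoproteasome subunits Psmb8 and Psmb10 had the largest differences of the 10 genes, with and without control 2. Psmb8, Psmb9 and Psmb10 encode catalytic subunits that replace those of Psmb5, Psmb6 and Psmb7 and change which peptides are cut. Psmb8 (chr17:34197721-34201454, plus strand) was at 8.01, 4.74 and 10.7 CPM in the controls and at 20.1, 24.7 and 26.9 CPM in the knockouts. Psmb8 rose by 1.61 (SE 0.31, edgeR adjusted p = 0.0168), and by 1.32 (SE 0.18, adjusted p = 8.90e-04) without control 2, but its call was lost without control 1 or any 1 knockout library (adjusted p 0.0504 to 0.0689).

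Psmb10 (chr8:105935735-105938444, minus strand) is the subunit whose gene lies outside the MHC. It was at 20.1, 13.8 and 22.1 CPM in the controls and at 51.3, 57.6 and 62.2 CPM in the knockouts, so the lowest knockout was well above the highest control. It rose by 1.61 (SE 0.19, edgeR adjusted p = 0.00470), and by 1.40 (SE 0.10, adjusted p = 5.24e-05) without control 2, and kept its call whichever library was left out. Psmb9 (chr17:34181987-34187764, minus strand) was at 5.58, 2.23 and 9.10 CPM in the controls and at 13.6, 13.5 and 16.3 CPM in the knockouts. The controls of Psmb9 were widely spread beside the difference between the group means, and its difference of 1.36 (SE 0.48) did not pass (edgeR adjusted p = 0.0925), while without control 2 it was 0.94 (SE 0.21, adjusted p = 0.00906).

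**Figure D2:**
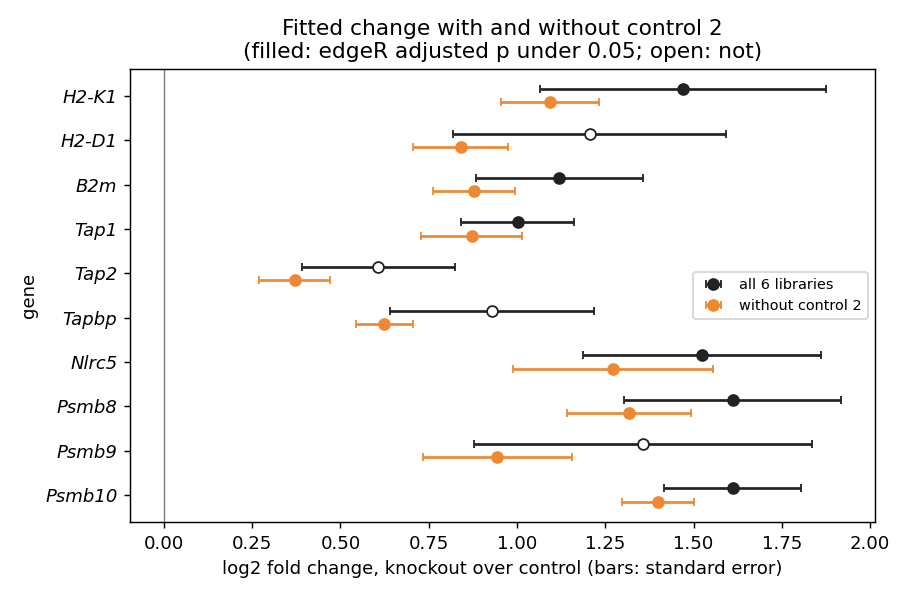
Fitted log2 fold change of the 10 class I genes, knockout over control, with all 6 libraries (black) and without control 2 (orange); bars are standard errors and filled points have an edgeR adjusted p under 0.05. Leaving out control 2 moved the 10 genes toward 0, from a median of 1.28 to 0.91, and shortened every bar, and all 10 orange points are filled.

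The constitutive counterparts Psmb5, Psmb6 and Psmb7 did not pass the test with all 6 libraries. Psmb5 was at 35.8 ± 1.9 CPM in the controls and 36.1 ± 3.2 in the knockouts, Psmb6 at 90.9 ± 7.2 and 91.4 ± 6.0, and Psmb7 at 67.3 ± 8.4 and 64.8 ± 2.5 (SD, n = 3 each). Their log2 fold changes of 0.01, 0.008 and -0.06 did not pass (edgeR adjusted p 0.729 to 0.954) and changed sign under other scalings, and Psmb7 was called lower without control 2 (-0.19, adjusted p = 0.0182). Per kb of exon, the 3 immunoproteasome subunits together stood at 14.1%, 10.1% and 16.4% of the 3 constitutive ones in the controls and at 39.4%, 39.2% and 45.0% in the knockouts. The means were 13.6% ± 3.2 and 41.2% ± 3.3 (SD, n = 3), a ratio 3.04 times as high in the knockouts, and without control 2 the control mean was 15.3%. This ratio is a within-library quantity and does not depend on the scaling between libraries.

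Pair by pair, the RNA level of Psmb8 per kb was 5.77% ± 1.99 of that of Psmb5 in the controls and 17.6% ± 1.6 in the knockouts, and that of Psmb9 was 3.11% ± 1.81 and 8.10% ± 0.93 of that of Psmb6 (SD, n = 3), where the control means without control 2 were 6.84% and 3.97%. Per kb, Psmb10 went from 56.5%, 47.9% and 60.9% of Psmb7 in the controls to 156%, 175% and 202% in the knockouts (control mean 58.7% without control 2). In CPM, without a length, Psmb10 was at 51.3, 57.6 and 62.2 in knockouts 1, 2 and 3, and Psmb7 at 66.1, 66.2 and 61.9. That Psmb10 passed Psmb7 therefore rests on the exon lengths. Levels per kb depend on the exon length used: with the longest transcript in place of all exons the combined ratios were 12.8% and 38.8%. The single pairs moved more. With that length Psmb8 stood at 10.2% of Psmb5 in the controls and 31.2% in the knockouts. Psmb9 stood at 2.0% and 5.3% of Psmb6, and Psmb10 at 59.7% and 192% of Psmb7. The ratios of knockout to control means were 3.05, 2.61 and 3.22 times. The lengths cancel in these ratios, so they are the same with either length by construction. The annotated exons of Psmb5 share 54.1% of their 50-base sequences with other genes, mostly the gene model Gm3375, so the Psmb5 level is the least certain of these.

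**Figure D3:**
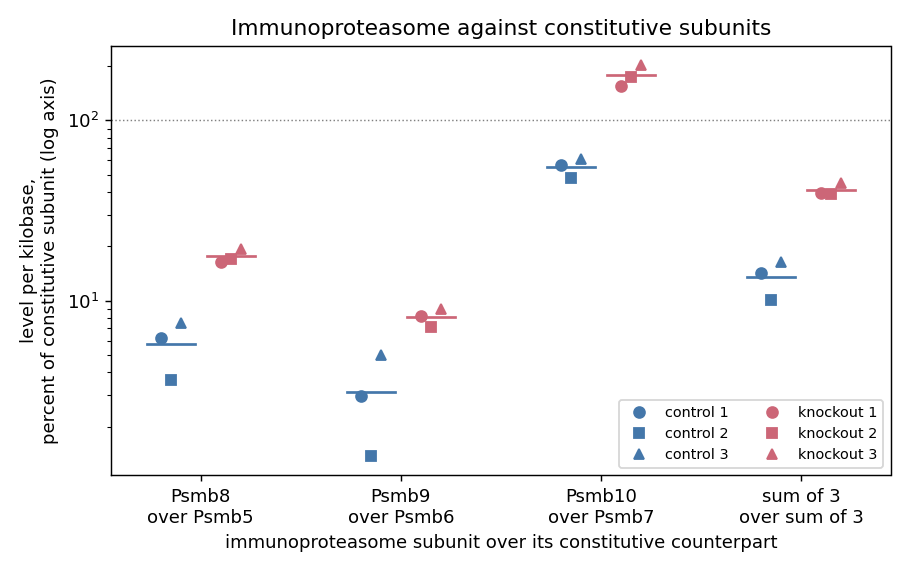
Level per kb of exon of each immunoproteasome subunit as a percent of its constitutive counterpart in each library (log axis; the dotted line marks equal levels), with lines at group means. The knockout libraries lie above the control libraries in all 4 comparisons. Per kb, Psmb10 passes from 55.1% to 177% of Psmb7 on average, a crossing that rests on the exon lengths used.

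The rest of the proteasome was described from a list of its 14 constitutive core genes (Psma1 to Psma7 and Psmb1 to Psmb7). Of these 0 of 14 passed the test in edgeR, voom and DESeq2, beside 24.7%, 24.8% and 31.5% of all tested genes. In edgeR 1 of the 14 had an unadjusted p under 0.05, and the median log2 fold change was 0.08 (-0.03 without control 2). Among 9 activator and assembly genes 5 rose and 0 fell (Psme1, Psme2, Psme3, Psme4 and Pomp), with a list median of 0.28 (0.27 without control 2), beside 13.1% of all tested genes called higher. Psme1 and Psme2 encode the interferon-inducible PA28 cap that opens the proteasome and had the largest differences of this list. Psme1 was at 58.1, 39.5 and 57.3 CPM in the controls and at 88.7, 99.4 and 99.4 CPM in the knockouts (0.89 on the log2 scale, SE 0.16; edgeR adjusted p = 0.0142; 0.70 without control 2). Psme2 was at 54.8, 40.8 and 56.7 against 83.8, 95.2 and 95.7 CPM (0.85, SE 0.14, edgeR adjusted p = 0.0110; 0.68 without control 2). Both groups were apart for both genes, and both lost their call without knockout 2 or knockout 3 (adjusted p 0.0507 to 0.0648). Pomp, the assembly chaperone, and the caps Psme3 and Psme4 differed by 0.28 to 0.36. Without control 2 the activator list kept 5 calls, but without knockout 2 it had 0, without knockout 3 it had 1, without control 3 or knockout 1 it had 2 and without control 1 it had 3. Over all tested genes 50.3% were called without control 2, and 9.46% to 12.6% in the other fits that left out a library.

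Of 18 other class I and class I-like heavy chain genes, 13 were tested, and 7 rose and 0 fell (H2-Q4, H2-Q6, H2-Q7, H2-T10, H2-T22, H2-T23 and Mr1, which presents microbial metabolites), with a list median of 0.83 (0.82 without control 2), beside 13.1% of all tested genes called higher. Non-classical class I molecules such as the Qa antigens are less polymorphic and engage NK cell and unconventional T cell receptors. H2-Q7 had the largest difference, at 2.42, 1.52 and 4.28 CPM in the controls and 23.7, 31.9 and 36.5 CPM in the knockouts (3.48 on the log2 scale, SE 0.41; edgeR adjusted p = 0.00442; 3.16 without control 2). H2-Q6 was at 5.27, 2.40 and 8.93 against 28.5, 48.0 and 52.6 CPM (2.96, SE 0.51, edgeR adjusted p = 0.0127; 2.57 without control 2), and its call was lost without control 1, knockout 2 or knockout 3 (adjusted p 0.0511 to 0.0559). The 3 Qa genes H2-Q4, H2-Q6 and H2-Q7, summed after their values were seen, summed to 6.73%, 7.46% and 8.26% of the size of the separate H2-K1 plus H2-D1 sum in the controls and to 13.1%, 14.6% and 15.3% in the knockouts. H2-Q6 shares 35% and H2-Q7 26.5% of its 50-base exon sequences with other genes, mostly with other Q genes, so the split between them is uncertain. H2-Q4 shares 36.4%, in part with the gene model Gm11131. The shares were larger for H2-T22 (53.5%) and for H2-T10 (50.4%), which is annotated as a polymorphic pseudogene. Exons of H2-T22 (29.4%) and H2-T10 (27.1%) also overlap gene models on the opposite strand, so the levels of both are uncertain. Leaving out control 1, knockout 2 or knockout 3 left 4 calls in this list, leaving out knockout 1 left 5 and leaving out control 3 left 7. In these fits 9.46% to 12.6% of all tested genes were called. Leaving out control 2 gave 10 calls in this list (with 50.3% of all genes then called), among them Fcgrt, the neonatal Fc receptor, which rose, and Cd1d1 and Hfe, which fell.

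Of 13 genes that trim peptides or help class I molecules fold, all tested, 3 rose (Erap1, Uggt1 and Ganab) and 1 fell (Lap3), with a median of 0.22 (0.30 without control 2). The 4 calls of 13 are a share near that of all tested genes (24.7%). Erap1, the aminopeptidase that trims peptides inside the endoplasmic reticulum, stood at 63.9, 34.5 and 66.1 CPM in the controls and 119, 119 and 126 CPM in the knockouts (1.14 on the log2 scale, SE 0.25; edgeR adjusted p = 0.0247; 0.87 without control 2). Ganab, a glucosidase of glycoprotein folding, was at 319, 333 and 329 against 416, 416 and 408 CPM (0.34, SE 0.06, edgeR adjusted p = 0.0135; 0.32 without control 2), a small difference with little spread. The general chaperones Calr and Canx, chosen for mention after their values were seen, were at 726 ± 220 and 749 ± 37 CPM in the controls and 885 ± 43 and 836 ± 23 in the knockouts (SD, n = 3) and did not pass (edgeR adjusted p = 0.385 and 0.194), but both were called higher without control 2 (0.00237 and 0.0370). Erap1 and Ganab were called in 1 of the 6 fits that left out a library, the one without control 2 (adjusted p elsewhere 0.0526 to 0.0862). The whole list had 0 calls without control 1, knockout 1, knockout 2 or knockout 3, 1 without control 3, and 12 without control 2 (9 higher, 3 lower), where 50.3% of all genes were called. In the other fits that left out a library 9.46% to 12.6% of all tested genes were called.

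**Figure D4:**
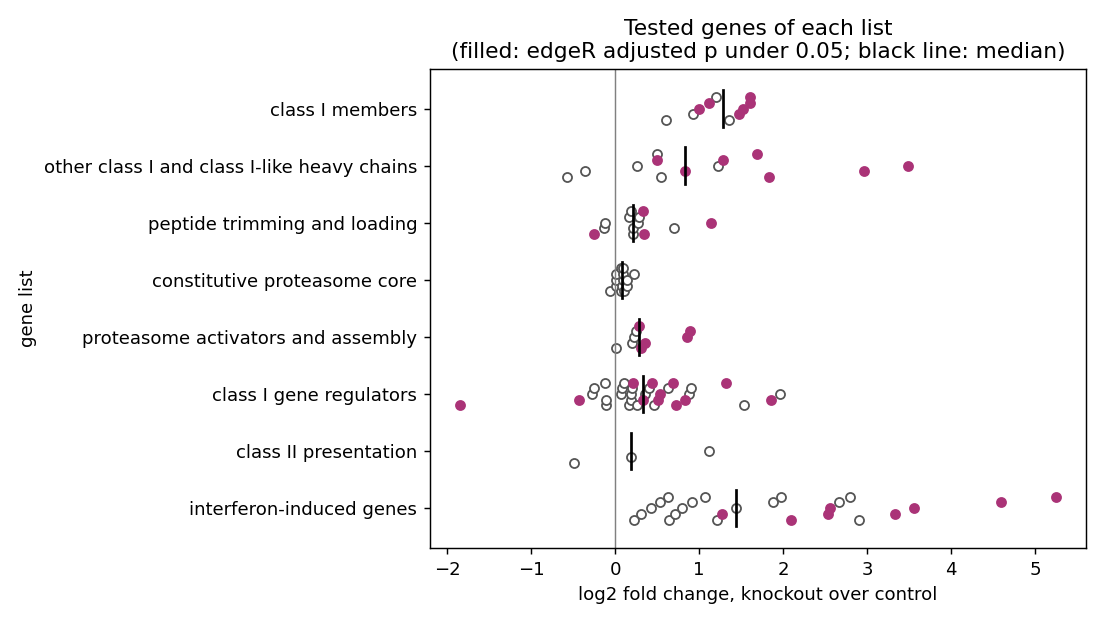
Fitted log2 fold change, knockout over control, of each tested gene in the class I set and in 7 related lists; filled points have an edgeR adjusted p under 0.05 and black lines mark list medians. The class I genes lie at 0.61 to 1.61 around a median of 1.28, the constitutive proteasome core around 0.08.

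Regulators of class I genes did not move as one. Of 33 genes (interferon regulatory factors, cytokine receptor signalling, the RFX and NF-Y promoter complex, NF-kappaB and the Polycomb repressor), 10 rose and 2 fell, beside 24.7% of all tested genes called in either direction, and the median was 0.33 (0.25 without control 2). Irf1, an activator of class I and immunoproteasome promoters, was at 36.0, 18.5 and 34.2 CPM in the controls and at 70.9, 68.0 and 83.4 CPM in the knockouts (1.33 on the log2 scale, SE 0.26; edgeR adjusted p = 0.0190; 1.04 without control 2). Its groups were apart, and its call was lost without control 3 or any 1 knockout library (adjusted p 0.0590 to 0.0724). Socs3, a feedback inhibitor of cytokine signalling, was at 34.7, 32.7 and 34.5 against 129, 126 and 115 CPM (1.86, SE 0.07, edgeR adjusted p = 4.23e-04; 1.80 without control 2), with control 2 at the level of the other controls. Irf8, a factor best known from myeloid cells, was at 13.8, 10.3 and 13.4 against 2.42, 3.46 and 4.51 CPM and fell (-1.85, SE 0.26, edgeR adjusted p = 0.00733; -2.01 without control 2).

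The other regulators that rose were Jak2, Ifnar2, Ptpn2, Rfx5, Nfkb1, Relb, Ezh2 and Suz12, and the other that fell was Tyk2, a kinase of the interferon receptor. Rfx5 is part of the complex through which Nlrc5 reaches class I promoters, and Ezh2 and Suz12 belong to the Polycomb complex that is known to repress class I genes. The regulator list had 22 calls without control 2 (15 higher, 7 lower, with 50.3% of all genes called). It had 10 without control 1 (12.6% of all genes called) and 5 to 7 without control 3 or any 1 knockout library. In the latter fits 9.46% to 11.2% of all tested genes were called.

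Of 30 genes known to be induced by interferon 25 were tested, and 8 rose and 0 fell (Ifit2, Mx2, Gbp4, Gbp5, Iigp1, Irgm1, Cxcl10 and Zbp1), with a median of 1.44 (1.24 without control 2), beside 13.1% of all tested genes called higher. The list had 11 calls without control 2 (25.5% of all genes were then called higher), 3 without control 1, 5 without control 3, 6 without knockout 1 and 2 without knockout 2 or knockout 3. In these last fits, apart from that without control 2, 9.46% to 12.6% of all tested genes were called in either direction. Cxcl10, a T cell attractant, was at 0.527, 0 and 0.274 CPM in the controls and at 3.75, 17.6 and 9.97 CPM in the knockouts (edgeR adjusted p = 0.0177, and 0.00361 without control 2, but 0.0629 to 0.0724 without control 3, knockout 2 or knockout 3, 0.0700 with voom and 0.0533 with a term for sex). Zbp1, a nucleic acid sensor, was at 0.369, 0.871 and 0.932 against 10.1, 19.2 and 23.4 CPM (4.59 on the log2 scale, SE 0.49; edgeR adjusted p = 0.00346; 4.72 without control 2).

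The class II pathway, by which dedicated antigen-presenting cells show peptides to CD4 T cells, was hardly read in these libraries. Of 12 class II genes 3 had enough counts to be tested, and 0 passed in edgeR, voom and DESeq2 (0 also at an unadjusted p under 0.05), beside 24.7%, 24.8% and 31.5% of all tested genes. The highest value of any class II gene in any library was 14.6 CPM, for Ifi30, a lysosomal reductase, and without control 2 Ifi30 was the 1 class II gene called higher. The transactivator Ciita, the heavy chain gene H2-Aa and the invariant chain Cd74 were among the 9 genes too low to test. Of 16 markers of leukocytes and microglia, 5 had enough counts to be tested, and 0 rose and 1 fell, beside 24.7% of all tested genes called in either direction. The 16 summed to 168 to 214 CPM in the controls and 30.1 to 36.7 CPM in the knockouts, and 11 of them, Ptprc, Cd3e and Itgam included, were under 1 CPM in every library. C1qa, C1qb and Tyrobp were at 0 in all 6. Most of the control sum was Laptm5 (162, 46.1 and 165 CPM) and, in control 2, Tmem119 (160 CPM).

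The genes whose pattern over the 6 libraries came closest to the class I genes were looked for among 10344 other protein-coding genes that averaged 5 CPM or more. Likeness was the root mean square difference, on the log2 scale, from the mean centred profile of the 6 class I genes that rose. The nearest were Trim21 (0.10), an antibody receptor of the cytosol, Il18bp (0.12), the soluble inhibitor of interleukin-18, Eya1 (0.13), a transcriptional coactivator and phosphatase, Gsdmd (0.14), the pore-forming protein of pyroptosis, and Irf1 (0.15). For comparison the class I genes themselves lay at 0.12 (Psmb8) to 0.40 (Tap2) from that profile. Trim21 was at 6.74, 5.23 and 9.70 CPM in the controls and 16.7, 20.5 and 21.1 CPM in the knockouts, and Gsdmd at 30.2, 19.4 and 31.2 against 66.8, 87.9 and 78.0 CPM. Control 2 was the lowest control for both, as it was for the class I genes. These 5 genes were chosen for their pattern, so their differences are a description of these libraries.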

How the data were processed

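Polyadenylated RNA was sequenced from 3 control and 3 knockout libraries, grouped by sample title. The authors deposited raw counts per gene, used here as whole-number counts without change. Per the labels' protocols, the kit was TruSeq Stranded mRNA or TruSeq RNA v2, with no record of which served which library. Per the submitters' processing notes, FastQC 0.11.5, STAR 2.7.6a and the build GRCm38 were used. How reads were counted, whether by strand and against which annotation release is not given in the sources used here, so reads of overlapping genes or near-identical copies could have been merged or split. Symbols, positions, exon lengths and shared 50-base sequences came from GENCODE M21, which matched 52489 of 52636 identifiers (at most 0.00608% of a library's counts were unmatched).

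Genes passing filterByExpr by group were fitted with TMM scaling in edgeR 4.0.16 (R 4.3.3). Two-sided quasi-likelihood F tests were adjusted by the Benjamini-Hochberg method over all tested genes, and a gene rose or fell at an adjusted p under 0.05. Alternatives were RLE, upper-quartile and library-size scaling, DESeq2 1.42.0, limma 3.58.1 voom with and without sample weights, other filters, the replicate number as a block, a term for sex read from Xist and Y-linked genes, and each library left out. Depth of 17274639 to 19410458 counts makes counting error small beside the spread between libraries for genes with many counts, and no 2 libraries agreed within sampling noise. Counting error is larger for genes with few counts, such as Psmb9 (106, 41 and 166 counts in controls 1, 2 and 3) and H2-Q7 (46, 28 and 78).

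The class I genes and the lists were chosen with earlier results of these data known. Named genes were the 10 class I genes, Erg, Fli1, Psmb5, Psmb6 and Psmb7, the 2 called genes of each other list with the largest absolute log2 fold change (mean of at least 5 CPM), and the 5 genes nearest in pattern (log2 of CPM plus 0.5). Other genes named with values were chosen after these were seen. Promoters came from RefSeq (GRCm38.p6).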

Additional observations from a re-analysis of the deposited data

How the results depend on the processing

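Every alternative kept all 10 class I genes higher in the knockouts, but the number called moved with the test and the libraries. The class I genes called were 6 with all libraries, 5 with RLE or upper-quartile scaling, 7 with scaling by library size or with voom, 9 with DESeq2, 10 with voom and sample weights, 4 with a term for sex, and 2 to 10 with 1 library left out (2 without control 1, knockout 2 or knockout 3, 3 without knockout 1, 5 without control 3, 10 without control 2). Tap1 and Psmb10 were called in each of these fits. Of all genes, 3437 were called, against 7387 with sample weights and 1351 to 7128 with 1 library left out. Leaving out 1 library gave 4 to 10 calls among the other heavy chains, 0 to 12 among the trimming and loading genes, 0 to 1 in the constitutive core (3 with scaling by library size), 0 to 5 among activators, 5 to 22 among regulators, 0 to 1 in class II and 2 to 11 among interferon-induced genes. Psmb5 turned negative with RLE (-0.0158), upper-quartile scaling (-0.0045), DESeq2 (-0.0161), sample weights (-0.0237) and a term for sex (-0.0189), and without control 1 (-0.0228), control 2 (-0.0411) or knockout 2 (-0.0395; range -0.0411 to 0.0835 with 1 library left out). Psmb6 did so with RLE (-0.0192), upper-quartile scaling (-0.0091), DESeq2 (-0.0193) and sample weights (-0.0594), and without control 2 (-0.0895) or knockout 2 (-0.0306; range -0.0895 to 0.0623). Psmb7 turned positive with scaling by library size (0.0343) and a term for sex (0.0130). The cause of these changes was not tested.

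Same-numbered libraries deviated from their group means with correlations of -0.188, 0.186 and 0.319, and control 1 correlated best with knockout 3 (0.375), so the numbers were not taken to pair the samples. With the replicate number as a block 1844 genes and 4 class I genes (Tap1, Nlrc5, Psmb8 and Psmb10) were called, and H2-K1, B2m, Ganab, Cxcl10 and Eya1 lost their calls (edgeR adjusted p 0.0824, 0.0520, 0.0736, 0.0758 and 0.0502).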
